A study of Saccharomyces cerevisiae with 36 samples.

Results

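Hsp90 and its cochaperones were followed through a heat shock and through a repeated heat shock in budding yeast (Saccharomyces cerevisiae). The members were the 10 genes named by a fixed list: the Hsp90 genes HSC82 (YMR186W) and HSP82 (YPL240C), and the 8 cochaperone genes STI1 (YOR027W), CPR6 (YLR216C), AHA1 (YDR214W), SBA1 (YKL117W), HCH1 (YNL281W), CDC37 (YDR168W), CNS1 (YBR155W) and PIH1 (YHR034C). All 10 were present among the 6403 genes of the count table and among the 6172 genes of the normalised table, and all 10 passed the filter on low counts. The libraries came from the laboratory strain BY4741, either wild type (WT) or lacking MIP6 (mip6d), grown exponentially in rich medium. Cultures of each strain were divided into a memory flask, heat shocked for 20 min, recovered for 60 min and shocked again, and a no-memory flask that met a single 20 min shock, both by addition of medium at 51 °C. That is the temperature of the added medium, and the mixed culture was cooler. Poly(A) RNA was sequenced at 0, 15 and 20 min, where 0 min in the memory flask follows the recovery, which gave 12 groups of 3 libraries, 36 in all. Every library shares the BY4741 background, and the labels name a single mip6d strain.

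Hsp90 is an ATP-driven chaperone that acts late in folding, on clients such as kinases and transcription factors. Cochaperones set its cycle: Sti1 passes clients from Hsp70 to Hsp90, Sba1 (p23) holds the closed ATP state, Aha1 and its short relative Hch1 raise the ATPase activity, Cpr6 is a cyclophilin with a TPR domain, Cdc37 brings kinases, Cns1 is an essential TPR protein, and Pih1 belongs to the R2TP assembly complex. In yeast HSC82 is the gene kept on at normal temperature and HSP82 is the more heat-inducible copy, and the heat shock factor Hsf1 binds upstream of both.

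Library totals lay between 28270651 and 42233578 read counts, and the members' counts ran from 504 for PIH1 to 449970 for HSP82. The label check held: MIP6 had 134 to 626 counts in the WT libraries and 0 in all mip6d libraries. In WT memory cells at 0 min, replicate 1 stood apart: HSP82 was at 2832, 611 and 158 CPM (read counts scaled to a common library total with TMM) in replicates 1, 2 and 3, and the heat shock marker HSP104, a disaggregase, was at 2799, 555 and 180.0 CPM. The order by number was shared: at 0 min replicate 1 was the highest for 8 of 10 members in WT no-memory, 8 in WT memory, 10 in mip6d no-memory and 6 in mip6d memory cells, and replicate 3 the lowest for 9, 7, 8 and 9. The main results that use replicate 1 of WT memory 0 min are also given without it, while correlations over group means are given only with it. One mip6d memory library carried conflicting time labels, 0 or 20 min, and was taken as 0 min, from its title. The heat shock marker HSP26 was at 9.7, 10.1 and 10.7 CPM in the mip6d memory libraries taken as 0 min. At 20 min it was at 5548.5, 7750 and 6165 CPM. The study describes its replicates as biological, and p-values measure the spread between these libraries. The Hsp90 coding sequences are 92.43% identical, with a longest identical run of 113 bases, so the split of reads between HSC82 and HSP82 is uncertain where the counting could not place them; AHA1 and HCH1 were 70.28% identical over the aligned part, with no identical run over 14 bases. No annotated gene overlaps a member.

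The stretches of sequence upstream of the coding regions are shown because they carry the heat shock elements, the Hsf1 binding motif built of alternating TTC and GAA units, of the Hsp90 genes and of STI1, CPR6 and AHA1. They were read from the R64 (sacCer3) genome and are written 5′ to 3′ on the coding strand, with the elements in capitals. The HSC82 stretch is chrXIII:632115-632194 (+ strand), HSP82 chrXVI:98826-98885 (− strand), STI1 chrXV:380793-380862 (+), CPR6 chrXII:573302-573371 (−) and AHA1 chrIV:892555-892594 (+).
HSC82: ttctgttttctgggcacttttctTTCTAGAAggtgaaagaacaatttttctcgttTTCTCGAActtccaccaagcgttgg
HSP82: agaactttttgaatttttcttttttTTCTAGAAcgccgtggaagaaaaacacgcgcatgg
STI1: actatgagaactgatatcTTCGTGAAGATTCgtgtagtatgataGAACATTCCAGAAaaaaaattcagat
CPR6: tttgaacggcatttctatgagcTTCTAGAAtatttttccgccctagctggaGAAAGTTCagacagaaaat
AHA1: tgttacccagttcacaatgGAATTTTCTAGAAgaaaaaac
In the 500 bases before the start codon, the 2-unit element (TTCNNGAA or GAANNTTC, either strand) occurred in 9 of 10 members and in 2111 of 6000 windows of all genes (35.18%). HSC82 had 3 matches, starting 217, 185 and 48 bases before the start codon, HSP82 2, at 235 and 67 bases, and CPR6 2, at 138 and 109 bases. The 3-unit form, which contains 2-unit forms, was found in STI1, at 242 and 216 bases, and in AHA1, at 301 bases, against 89 of 6000 windows (1.483%). The stress response element AGGGG occurred in HSP82, at 396 and 149 bases, and in SBA1, at 145 bases, against 34.07% of windows. CNS1 had none of these letters in its window. A match is a description of letters and not of a bound site.

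**Figure D1:**
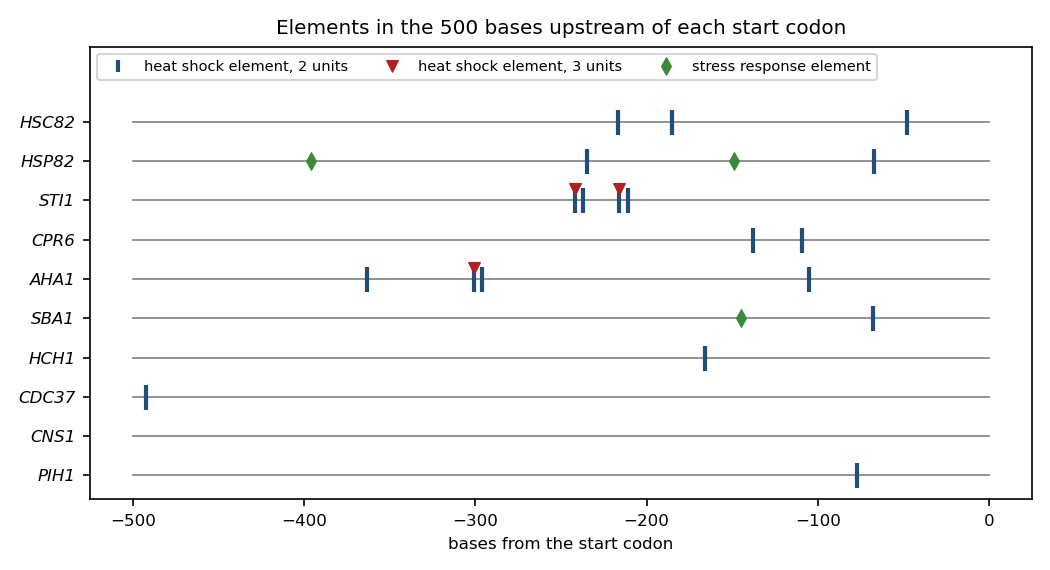
Position of heat shock elements (2 units, bars; 3 units, triangles) and stress response elements (diamonds) in the 500 bases before each member's start codon, in bases on the x axis. All members but CNS1 carry at least 1 element, and STI1 and AHA1 carry the 3-unit form.

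Before heat shock, the members spanned about 2 orders of magnitude. In WT no-memory cells at 0 min the level per kilobase of coding sequence was highest for HSC82 (2157 ± 380.2 CPM per kb, mean ± SD, n = 3), then HSP82 (1533 ± 510.5), STI1 (875 ± 302), CPR6 (761 ± 207), AHA1 (607 ± 129), HCH1 (510.2 ± 75.2) and SBA1 (472 ± 29.5). CDC37 (71.4 ± 2.95), CNS1 (44.6 ± 10.5) and PIH1 (19.9 ± 0.139) lay far below. From HSC82 down to SBA1 each neighbour differed from the next by less than the sum of their SDs, while SBA1, CDC37, CNS1 and PIH1 were separated by more. At 15 min of a single shock CPR6 had passed STI1, at 5000.2 ± 288 against 3443 ± 204 CPM per kb. After recovery, in mip6d memory cells at 0 min, SBA1 (362 ± 7.44 CPM per kb) stood above HSP82 (203 ± 133).

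**Figure D2:**
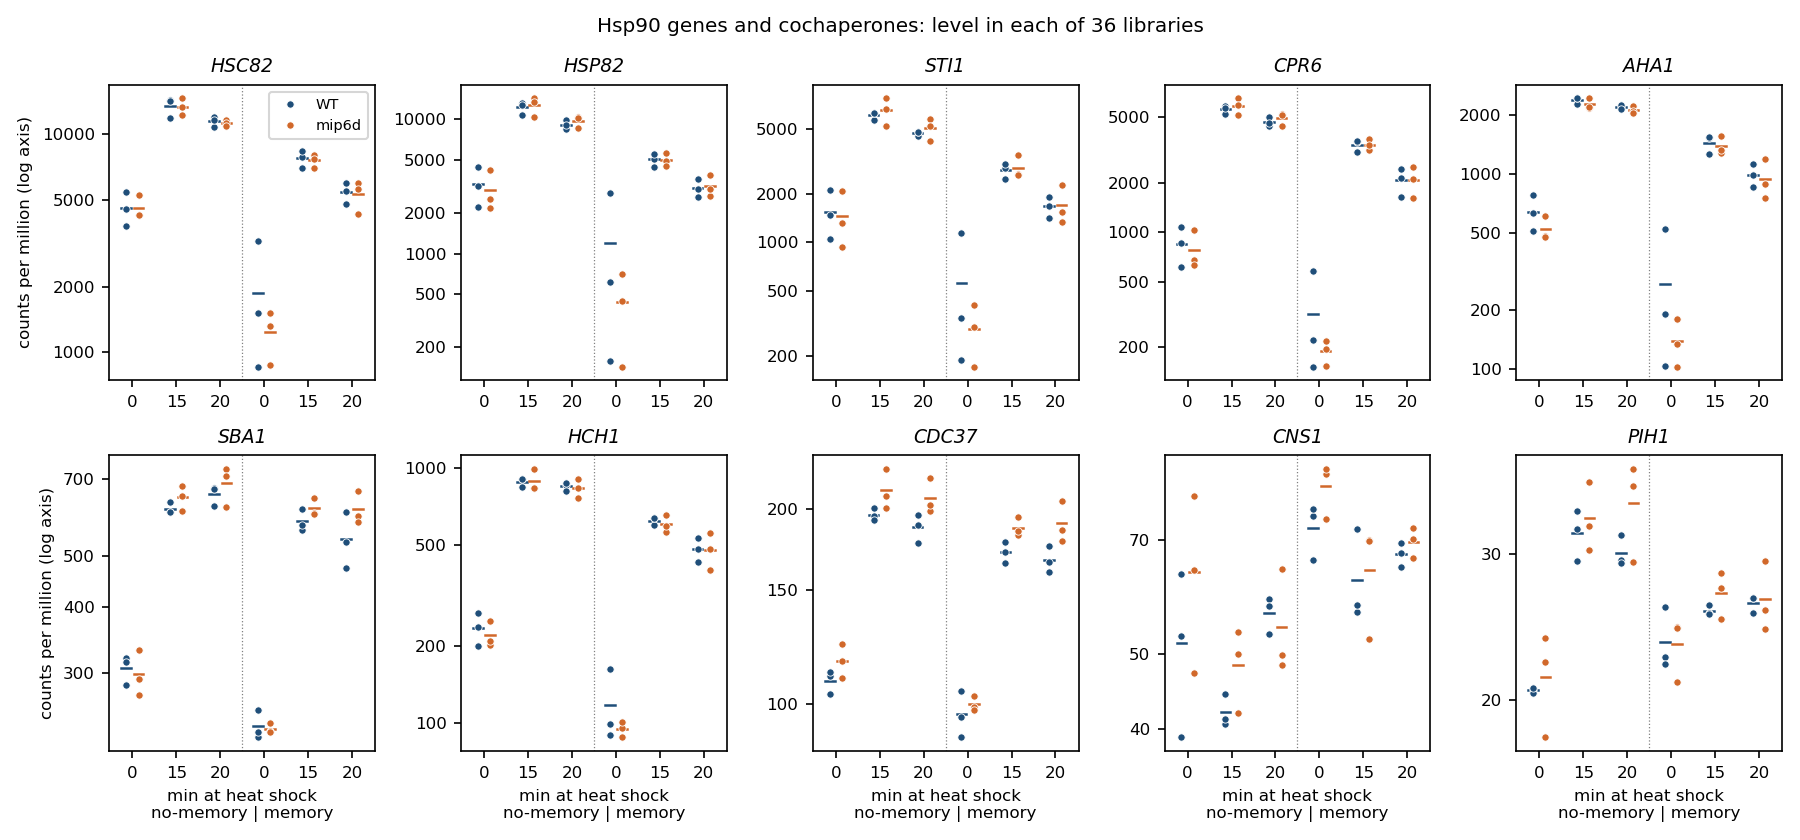
Level of each member (CPM, log axis) in every library, by minutes of heat shock in no-memory and memory cells; points are libraries, bars group means, blue WT and orange mip6d. Memory cells at 0 min hold the lowest HSC82, HSP82, STI1, CPR6, AHA1, SBA1, HCH1 and CDC37 means, and WT replicate 1 there (HSP82 2832 CPM) lies above the other 2.

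The first question was how the machinery answered a single heat shock. In no-memory cells 9 of 10 members rose within 15 min in WT, against 35.9% of all 6038 genes tested, and 9 of 10 rose in mip6d, against 37%. The median log2 change of the members was 1.73 in WT and 1.78 in mip6d, beside 0.01 and 0.009 over all genes. At 20 min 9 of 10 were higher than at 0 min in each strain, against 34.8% of genes in WT and 36.5% in mip6d. None was called lower at 20 min, against 34% of genes in WT and 36.3% in mip6d. Changes were tested with edgeR's quasi-likelihood test and called at a Benjamini-Hochberg adjusted p under 0.05 over all genes.

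HSC82, the more abundant Hsp90 transcript before heat, was at 5390.4, 4534 and 3781 CPM in WT at 0 min and at 11870.0, 14207 and 14101 CPM after 15 min. In mip6d it went from 5253, 4253 and 4248 to 14589, 13249 and 12140.0 CPM. No heated library overlapped an unheated one, and the log2 change was 1.55 ± 0.27 (SE; edgeR adjusted p = 1.1e-05) in WT and 1.54 ± 0.27 in mip6d. HSP82, the inducible copy, was at 4384, 3203 and 2212 CPM in unheated WT cells and at 10811, 13282 and 12695 CPM after 15 min. In mip6d HSP82 was at 4206, 2549 and 2192 and then 14412, 13413 and 10327 CPM. Its log2 change was 1.91 ± 0.55 in WT (adjusted p = 0.0031) and 2.09 ± 0.56 in mip6d (adjusted p = 0.0014), with a standard error above that of HSC82. The unheated libraries spread widely, and in both strains replicate 1 was the highest and replicate 3 the lowest. Without the replicate 2 libraries HSP82 was no longer called in any no-memory comparison (adjusted p = 0.078 in WT and 0.0598 in mip6d at 15 min, 0.171 and 0.125 at 20 min).

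The steepest rise among the members was that of CPR6, the cyclophilin. It stood at 1075, 860.0 and 613 CPM in unheated WT cells and at 5226, 5853 and 5661 CPM at 15 min, a 6.57-fold change (log2 2.72 ± 0.31, adjusted p = 9.3e-09). In mip6d CPR6 rose from 1027, 677 and 634 to 6519.9, 5934 and 5139.7 CPM (log2 2.91 ± 0.31). STI1, the Hsp70 to Hsp90 adaptor, rose from 2115, 1481 and 1052 to 5678, 6308 and 6296 CPM in WT (log2 1.98 ± 0.41). The ATPase activators moved alike: AHA1 went from 778, 630.4 and 508 to 2291, 2441 and 2446 CPM, and HCH1 from 269, 238 and 200.0 to 842, 908 and 909 CPM. Both had a WT log2 change of 1.91, with SEs of 0.32 for AHA1 and 0.16 for HCH1. For these 4 cochaperones the heated and unheated libraries did not overlap in either strain at 15 or 20 min.

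SBA1 (p23) and CDC37 (the kinase adaptor) rose less, with little spread. SBA1 was at 321, 316 and 285 CPM at 0 min and 606, 607 and 632 CPM at 15 min in WT (log2 1.00 ± 0.09). CDC37 was at 110.3, 112 and 103 and then 195, 192 and 201 CPM (log2 0.85 ± 0.07, adjusted p = 1.5e-11). PIH1, the scarcest member, went from 20.6, 20.4 and 20.7 to 29.5, 32.2 and 33.9 CPM in WT (log2 0.63 ± 0.10) and from 23.7, 22.2 and 18 to 36.6, 32.4 and 30.4 CPM in mip6d (log2 0.64 ± 0.10). Its heated libraries all lay above the unheated ones. CNS1 was the exception: it was at 63.3, 52.8 and 39 CPM in unheated WT cells and at 40.6, 41.2 and 44.3 CPM at 15 min, with overlapping libraries (log2 -0.30 ± 0.16, adjusted p = 0.0944). In mip6d CNS1 fell from 79.9, 64.1 and 47.3 to 42, 53.3 and 50 CPM (log2 -0.40 ± 0.16, adjusted p = 0.0259), 1 of 10 members called lower against 37.4% of genes. That call did not hold under scaling to library size only, in the fit of the 2 groups alone, or without replicate 1 or 2.

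**Figure D3:**
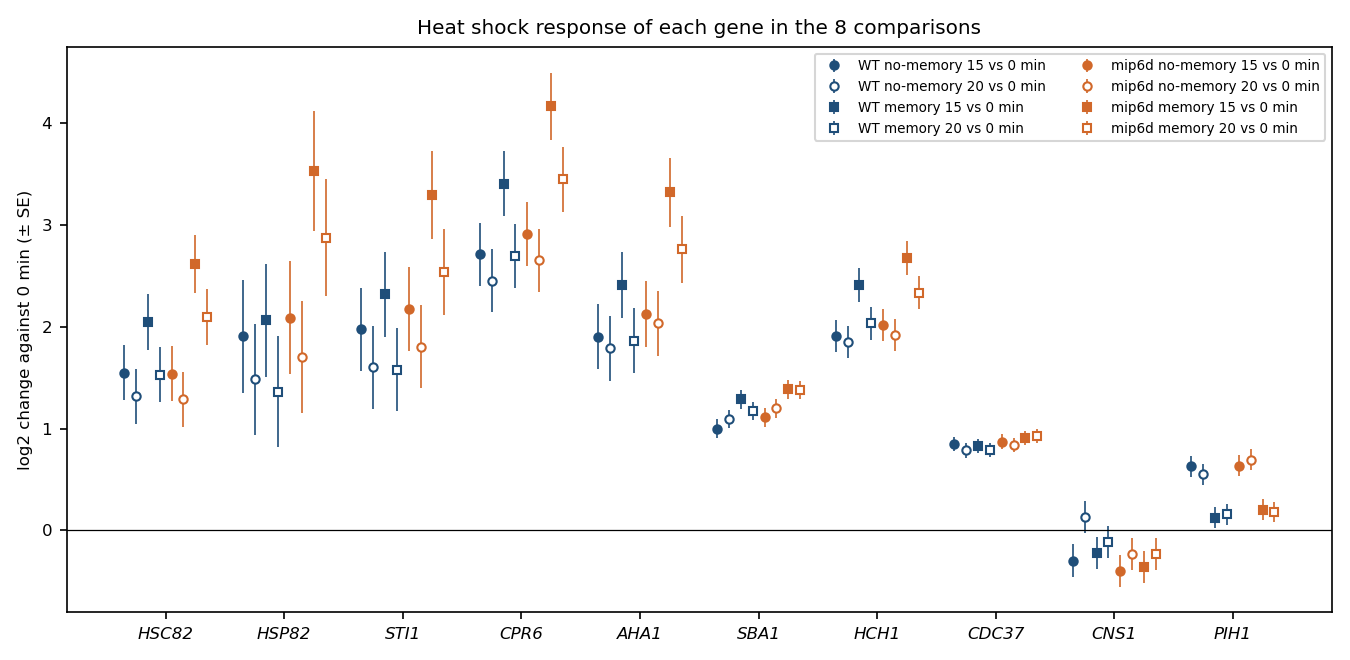
Log2 change (± SE) of each member at 15 min (filled) and 20 min (open) against 0 min, in no-memory (circles) and memory (squares) cells of WT (blue) and mip6d (orange). CPR6 reaches the largest changes (4.17 in mip6d memory cells at 15 min), CNS1 lies at or below 0.13 throughout, and PIH1 lies between 0.13 and 0.20 in memory cells at 15 min.

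In memory cells the second shock started from a lower level and again raised 8 of 10 members. The share of genes called higher was 31.7% at 15 min and 29.1% at 20 min in WT, and 33.3% and 32.2% in mip6d; the members' medians were 2.06, 1.45, 2.65 and 2.22 (log2). Without replicate 1 of WT memory 0 min the WT medians were 2.71 and 2.27, again with 8 members higher. In WT memory cells 0 members were called lower at 15 and 20 min, against 32.6% and 29.8% of genes, and 0 at 20 min in mip6d, against 32.5%. HSP82 went from 709.5, 445 and 143 CPM at 0 min to 4904, 5619.5 and 4461 CPM at 15 min in mip6d (log2 3.53 ± 0.59, adjusted p = 6.6e-06). In WT it was at 4436, 5083 and 5547 CPM at 15 min (log2 2.06 ± 0.56, adjusted p = 0.002), and without replicate 1 of WT memory 0 min the change was 3.71 ± 0.51. At 20 min in WT, HSP82 was at 2652, 3570.4 and 3049 CPM, which overlaps the 0 min libraries through replicate 1 (log2 1.36 ± 0.54, adjusted p = 0.0328, and 3.01 without that library). HSC82 reached 6962, 7852 and 8377 CPM in WT and 7002, 7990.1 and 7697 CPM in mip6d at 15 min, from 3241, 1516 and 859 and 1509, 1318 and 872 CPM at 0 min. Leaving out all replicate 2 libraries ended the WT memory call of HSP82 at both times and of STI1 at 20 min (adjusted p = 0.107, 0.403 and 0.126), and leaving out replicate 3 ended that of HSP82 at 20 min (0.132).

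CPR6 had the largest rise in memory cells as well. It went from 579, 221 and 153 to 3052, 3499.9 and 3563 CPM in WT and from 218, 195 and 154 to 3157, 3659 and 3372 CPM in mip6d, 10.6-fold and 18-fold, and the WT fold without the library that stood apart came to log2 4.17 beside 3.41 with it. HCH1 rose from 95.4, 101 and 87.4 to 563, 656 and 596 CPM in mip6d (log2 2.68 ± 0.16). SBA1 went from 255, 227 and 233 to 614, 559 and 573 CPM in WT (log2 1.29 ± 0.09). PIH1 was not called in memory cells with TMM: it was at 22.5, 22.1 and 25.9 CPM at 0 min and 25.5, 26.1 and 25.4 CPM at 15 min in WT (log2 0.13 ± 0.10, adjusted p = 0.286). In mip6d its change was 0.20 ± 0.10 (adjusted p = 0.0743, and 0.0404 with the replicate block by culture). With library size only, which moved the median gene upward, PIH1 was called higher in all 4 memory comparisons, at 0.23 and 0.28 in WT (adjusted p = 0.0419 and 0.0168) and 0.34 and 0.38 in mip6d (0.0029 and 0.0013). CNS1 fell in mip6d memory cells from 85.2, 86.5 and 74.6 to 52.2, 70.1 and 69.8 CPM (log2 -0.36 ± 0.16, adjusted p = 0.0436), the sole member called lower there against 35% of genes, a call that 7 of 15 alternative settings did not give, among them the one without the library of conflicting labels (adjusted p = 0.114). In the other memory comparisons CNS1 had log2 changes between -0.24 and -0.11.

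Between 15 and 20 min no member was called in any of the 4 comparisons, where edgeR called 1.28% (WT no-memory), 0.132% (WT memory), 0.199% (mip6d no-memory) and 0.182% (mip6d memory) of genes. At an unadjusted edgeR p under 0.05 the members numbered 1, 2, 0 and 2 of 10, against 1108, 793, 568 and 755 of 6038 genes. In memory cells the 20 min libraries of HSC82, HSP82, STI1, CPR6, AHA1 and HCH1 all lay below the 15 min ones in both strains. How many of all genes separated in this way was not counted, so the separation is not a result about the members. WT CPR6 was at 3052, 3499.9 and 3563 CPM at 15 min and 1632, 2411 and 2138 CPM at 20 min (log2 -0.71 ± 0.29, edgeR adjusted p = 0.299). In no-memory cells of WT, HSP82 went from 12263 to 9136 CPM on average (log2 -0.42 ± 0.54). None of the 15 alternative settings called a member here.

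The next question was whether an earlier shock left the genes at another level. At 0 min, that is after 60 min of recovery, 6 of 10 members were lower in WT memory than in WT no-memory cells, against 9.94% of genes, and 8 of 10 were lower in mip6d, against 10.1%. The members' median log2 difference was -1.12 in WT and -1.56 in mip6d, beside 0.02 and 0.009 over all genes. Without replicate 1 of WT memory 0 min 8 members were lower in WT, against 8.81% of genes, with a median of -1.63. HSP82 was at 709.5, 445 and 143 CPM in mip6d memory cells against 4206, 2549 and 2192 CPM in no-memory cells (log2 -2.79 ± 0.57, adjusted p = 0.0012), a 6.89-fold lower level with no overlap. In WT the HSP82 libraries overlapped through replicate 1 and the difference was not called (log2 -1.44 ± 0.55, adjusted p = 0.0721). Without that library it was -3.08 (adjusted p = 0.00011), and with the replicate block by culture -1.63 (adjusted p = 0.0274). HSC82 was lower in both strains, with log2 differences of -1.29 ± 0.27 in WT and -1.89 ± 0.27 in mip6d. The libraries of STI1, AHA1 and CDC37 also overlapped in WT. Without the library that stood apart the WT differences were -1.94 for HSC82, -2.55 for STI1, -2.18 for CPR6 and -2.11 for AHA1, and with it -1.29, -1.47, -1.42 and -1.23.

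The cochaperones differed in how far they lay below the no-memory level at 0 min. STI1 (-2.30 ± 0.42), CPR6 (-2.04 ± 0.30) and AHA1 (-1.90 ± 0.32) had log2 differences near that of HSC82 in mip6d, HCH1 had -1.22 ± 0.16 and SBA1 -0.34 ± 0.09. CDC37 was lower in mip6d, with -0.22 ± 0.07 (adjusted p = 0.0282), a call lost without any 1 of the replicate numbers, with library size only and without the library of conflicting labels (adjusted p = 0.0742); in WT it was at -0.17 ± 0.07 (adjusted p = 0.0965, and 0.0375 without replicate 1 of WT memory 0 min). CNS1 went the other way, from 63.3, 52.8 and 39 CPM in WT no-memory to 75.2, 66 and 76.7 CPM in WT memory cells, with no overlap (log2 0.49 ± 0.16, adjusted p = 0.0333). It was 1 of 10 called higher against 5.45% of genes, and its adjusted p was 0.0797 without replicate 1 of WT memory 0 min. In mip6d CNS1 was at 0.37 ± 0.16 (adjusted p = 0.117), and 0 members were called higher against 5.25% of genes. Counted in either direction, the WT calls at 0 min leaned on single replicates: 1 member was called without the replicate 2 libraries, 1 without replicate 3 and 8 without replicate 1, where the same fits called 2.27%, 1.6% and 21.1% of all genes. In mip6d they called 4, 6 and 7 members and 3.46%, 3.94% and 19% of genes. With library size only the median gene shifted by 0.19 in WT and 0.16 in mip6d, and 27.3% of genes were called higher and 3.97% lower in WT, 19.3% and 4.8% in mip6d. SBA1 was then not called (-0.17 in WT, adjusted p = 0.159, and -0.18 in mip6d, 0.154). PIH1 was called higher in both strains (0.38, adjusted p = 0.0059, and 0.29, 0.034), as was CNS1 in mip6d (0.52, 0.0213).

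At 15 min of heat shock 6 of 10 members were lower in memory cells of each strain, HSC82, STI1, CPR6, HCH1, CDC37 and PIH1, against 19.7% of genes in WT and 17.8% in mip6d. HSC82 was at 6962, 7852 and 8377 CPM in WT memory cells against 11870.0, 14207 and 14101 CPM in no-memory cells (log2 -0.79 ± 0.27, adjusted p = 0.0183). HSP82 was at 4436, 5083 and 5547 CPM against 10811, 13282 and 12695 CPM, with no overlap, and was not called (log2 -1.29 ± 0.54, adjusted p = 0.0586 in WT and 0.0501 in mip6d). The model takes 1 spread per gene from all 12 groups. With the replicate block by culture HSP82 was called in both strains (adjusted p = 0.0442 and 0.0396), and in the fit of the 2 WT groups alone its adjusted p was 0.00017. AHA1 was at 1260.5, 1535 and 1551 CPM against 2291, 2441 and 2446 CPM in WT, again with no overlap (log2 -0.72 ± 0.31, adjusted p = 0.0623). Without replicate 1 of WT memory 0 min, whose spread enters the shared estimate, HSP82 and AHA1 were called in both strains (adjusted p = 0.0094 and 0.0045 in WT, 0.0074 and 0.006 in mip6d). STI1 was lower, with -1.13 ± 0.40 in WT and -1.18 ± 0.40 in mip6d. CNS1 was higher, with 0.57 ± 0.16 in WT (adjusted p = 0.005) and 0.40 ± 0.16 in mip6d (adjusted p = 0.044), against 21.6% and 21.3% of genes. SBA1 was at -0.08 ± 0.09 and -0.07 ± 0.09.

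These 15 min calls depended on the scaling and on replicate 2. TMM factors of memory libraries at 15 and 20 min lay above those of no-memory libraries at 15 min, and with library size only the median gene shifted by 0.25 (log2) in the WT and 0.22 in the mip6d comparison. Of all genes, 46.2% were then called higher and 6.64% lower in WT, and 42.2% and 6.16% in mip6d. Under that scaling CNS1 was the sole WT member called, and CNS1 and STI1 were called in mip6d. CDC37, at -0.19 in WT and -0.19 in mip6d with TMM, was then at 0.06 and 0.03. Without the replicate 2 libraries 0 WT members and 1 mip6d member were called, against 24.6% and 22.7% of genes. Without replicate 3 there were 4 and 5, against 27.3% and 25.5%, and without replicate 1, 9 and 7, against 38.5% and 35.7%. CPR6 in WT had an adjusted p of 0.0528 without the library of conflicting labels, which enters this comparison only through the shared spread, and 0.0472 with it.

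By 20 min 7 of 10 members were lower in memory cells of each strain, against 22.5% of genes in WT and 22.3% in mip6d. HSC82 was at 4749, 5973 and 5502 CPM in WT memory and 10775, 11910.0 and 11535 CPM in WT no-memory cells (log2 -1.08 ± 0.27, adjusted p = 0.002). HSP82 was at 2652, 3570.4 and 3049 CPM against 8403, 9884 and 9122 CPM in WT (log2 -1.56 ± 0.55, adjusted p = 0.0218) and at 2694, 3822 and 3014 CPM against 10457, 10206 and 8554 CPM in mip6d (log2 -1.62 ± 0.55). STI1 was at 1424, 1907 and 1681 CPM against 4525, 4786 and 4808 CPM in WT, 2.82-fold lower. In WT CPR6 had a log2 difference of -1.18 ± 0.29 and AHA1 of -1.16 ± 0.31, with mip6d at -1.25 and -1.17. HCH1 was lower, with -0.82 ± 0.16 in WT and -0.80 ± 0.16 in mip6d. The 7th member was SBA1 in WT (-0.29 ± 0.09, adjusted p = 0.0115) and PIH1 in mip6d (-0.38 ± 0.10, adjusted p = 0.0029). CDC37 was at -0.17 ± 0.07 in WT (adjusted p = 0.0535, 0.0453 with the replicate block by culture and 0.0456 without replicate 1 of WT memory 0 min), and CNS1 at 0.36 ± 0.16 in mip6d (adjusted p = 0.0596, and 0.0343 with the block). With library size only, 7 members were called in each strain, HSC82, HSP82, STI1, CPR6, AHA1 and HCH1 lower and CNS1 higher, against 40% of genes higher and 10.2% lower in WT and 40.3% and 10.3% in mip6d. Without replicate 2, 3 WT members and 6 mip6d members were called, against 27.1% and 32.4% of genes.

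**Figure D4:**
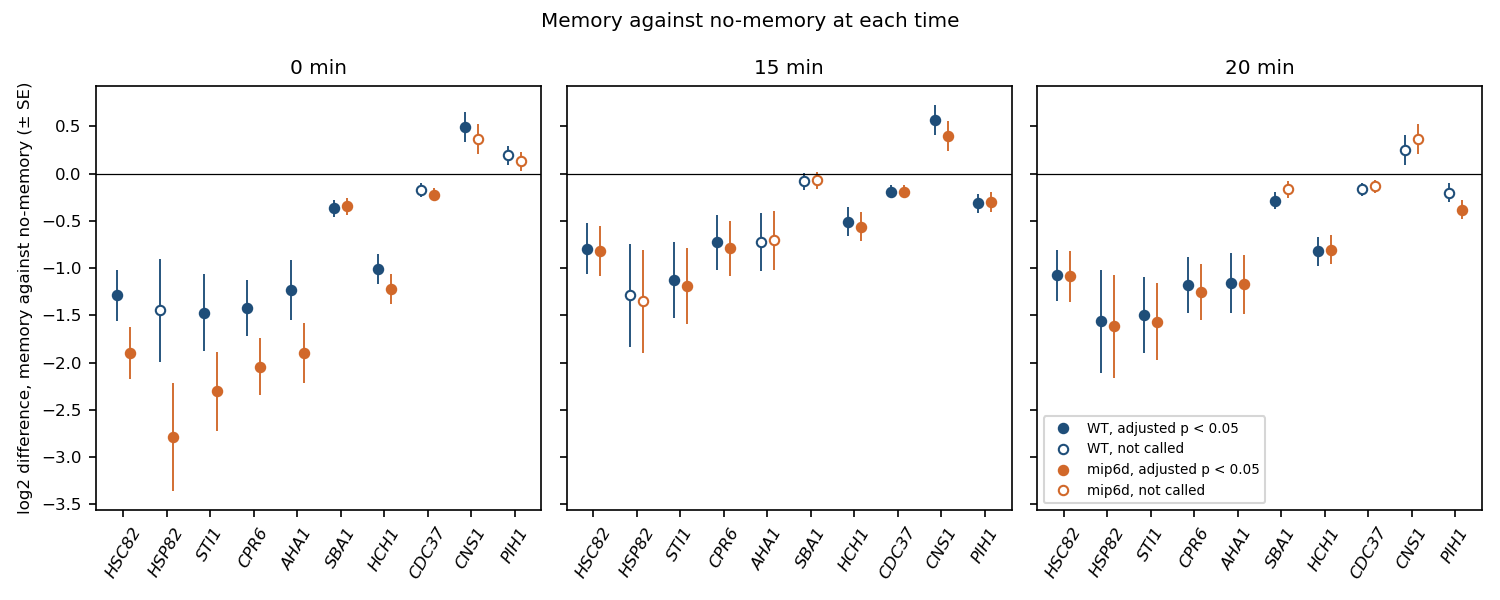
Log2 difference (± SE) of memory against no-memory cells for each member at 0, 15 and 20 min, WT in blue and mip6d in orange; filled points have an adjusted p under 0.05. Most members lie below 0 at every time, while CNS1 lies above 0 in all 6 comparisons (0.25 to 0.57).

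Whether the response itself differed between memory and no-memory cells was tested as the difference of the 2 log2 changes. The genes called numbered 10.8% (15 min) and 9.89% (20 min) in WT, and 9.61% and 13.5% in mip6d. PIH1 was the sole member called: its response was smaller in memory cells, with a difference of -0.51 ± 0.14 at 15 min in WT (adjusted p = 0.0222) and -0.51 ± 0.14 at 20 min in mip6d (adjusted p = 0.0179). At the other times PIH1 had -0.39 ± 0.14 (WT, 20 min, adjusted p = 0.0792) and -0.43 ± 0.14 (mip6d, 15 min, adjusted p = 0.0547). Both calls of PIH1 were lost on leaving out any 1 replicate number (adjusted p = 0.0515, 0.234 and 0.141 in WT, and 0.0502, 0.166 and 0.119 in mip6d). The Hsp90 genes and the steep cochaperones had positive differences at 15 min in mip6d, 1.08 ± 0.38 for HSC82, 1.44 ± 0.76 for HSP82, 1.26 ± 0.41 for CPR6 (adjusted p = 0.0512) and 0.66 ± 0.22 for HCH1 (adjusted p = 0.0525).

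The replicate block by culture called HSC82, CPR6, AHA1, HCH1 and PIH1 in that mip6d comparison (adjusted p = 0.0383, 0.027, 0.0472, 0.0266 and 0.0141), and PIH1 at 20 min in WT (0.0264). In WT at 15 min the differences were 0.49 ± 0.38 for HSC82 and 0.69 ± 0.41 for CPR6. Without replicate 1 of WT memory 0 min they were 1.15 (adjusted p = 0.0115) and 1.46 (adjusted p = 0.0028), with STI1, AHA1 and HCH1 called too. In mip6d HSC82, CPR6, AHA1 and HCH1 were then called at 15 min (adjusted p = 0.0079, 0.004, 0.0059 and 0.0112), and HSC82 at 20 min (0.0379). These differences use the 0 min libraries of both flasks, whose levels are given above. The shares of all genes called were not set beside these member calls, for the block or without replicate 1 of WT memory 0 min. Whether members were called more often than other genes under these settings was thus not tested.

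Loss of MIP6 left no member called in any of the 6 comparisons of mip6d with WT, in which edgeR called 0.0166%, 0.0166% and 0.0166% of genes in no-memory cells at 0, 15 and 20 min and 0.0331%, 0.0331% and 0.0331% in memory cells. At an unadjusted edgeR p under 0.05 there were 0, 0 and 1 of 10 members in no-memory cells at 0, 15 and 20 min, against 369, 192 and 394 of 6038 genes. In memory cells there were 5, 0 and 2 members, against 308, 60 and 177 genes. No alternative setting called a member. At 15 min in no-memory cells HSC82 differed by -0.01 ± 0.27, HSP82 by 0.05 ± 0.53 and CPR6 by 0.07 ± 0.29 (log2). The largest differences were at 0 min in memory cells, HSP82 at -1.47 ± 0.55 (adjusted p = 0.674) and AHA1 at -0.96 ± 0.31 (adjusted p = 0.471). Without replicate 1 of WT memory 0 min they were 0.17 and -0.08. CDC37 had all 3 mip6d libraries above WT at 20 min in no-memory cells and at 15 and 20 min in memory cells, for example 178, 186 and 206 CPM against 159.8, 175 and 166 CPM (log2 0.19 ± 0.07, edgeR adjusted p = 0.997). It was 1 of 10 members in each of these comparisons. The share of all genes that separated in this way was not counted, and no strain effect on CDC37 is read from it. The strain difference of the heat response and of the memory effect on it, 6 tests in all, called 0% of genes and 0 members.

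The HSP82 to HSC82 ratio, from CPM per kb, was used to ask whether the near-identical pair moved unequally. In WT no-memory cells it was 0.809, 0.702 and 0.582 at 0 min, 0.906, 0.93 and 0.895 at 15 min and 0.776, 0.825 and 0.786 at 20 min. In WT memory cells it was 0.869, 0.401 and 0.183 at 0 min, 0.634, 0.644 and 0.658 at 15 min and 0.555, 0.594 and 0.551 at 20 min. Replicate 1 at 0 min was the highest of these 9. The mip6d no-memory ratios were 0.796, 0.596 and 0.513 at 0 min, 0.982, 1.01 and 0.846 at 15 min and 0.896, 0.905 and 0.787 at 20 min. Those of mip6d memory cells were 0.468, 0.336 and 0.164 at 0 min, 0.696, 0.699 and 0.576 at 15 min and 0.624, 0.638 and 0.534 at 20 min. By CPM per kb HSC82 thus stayed the more abundant transcript in all libraries but 1, replicate 2 of mip6d no-memory cells at 15 min. By the authors' normalised values the ratio reached 1.08 in WT and 1.02 in mip6d no-memory cells at 15 min. The order of the pair near equal levels is uncertain, as is the split of their reads. The ratio rose with heat, by a mean log2 of 0.71 at 15 min and 0.55 at 20 min, in 4 of 4 strain and flask combinations (exact permutation test, two-sided, adjusted p = 0.0049 and 0.0147 over 8 tests). The permutations took libraries as independent and did not keep together those that may come from 1 culture. A ratio test paired by culture was not run, so the p-values of all 8 tests leave such pairing out. In memory cells the ratio was lower, with -0.51 at 15 min and -0.51 at 20 min, in both strains with no overlap (exact permutation test, adjusted p = 0.0133 for each, from an unadjusted 0.005, the smallest 400 arrangements allow). With the authors' normalised values the WT ratios at 15 min did overlap, at 0.782 to 1.08 in no-memory and 0.547 to 0.792 in memory cells. The 15 min difference was then -0.51 as well (exact permutation adjusted p = 0.02). At 0 min the memory difference was -0.94 (exact permutation adjusted p = 0.056), and -1.22 without replicate 1 of WT memory 0 min (adjusted p = 0.008). Without replicate 1 of WT memory 0 min the heat changes were 0.85 and 0.69 (exact permutation adjusted p = 0.0001 and 0.0003). Without the replicate 2 libraries the changes were 0.70 and 0.53 and the calls were lost (exact permutation adjusted p = 0.148 and 0.296). Without replicate 3 the changes were 0.44 and 0.28, also not called (0.0889 and 0.158). With 2 replicates a group, the memory tests have 36 arrangements and could not pass. The ratio did not pass the test between strains at any time (exact permutation adjusted p = 0.526, 0.575 and 0.153 at 0, 15 and 20 min).

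**Figure D5:**
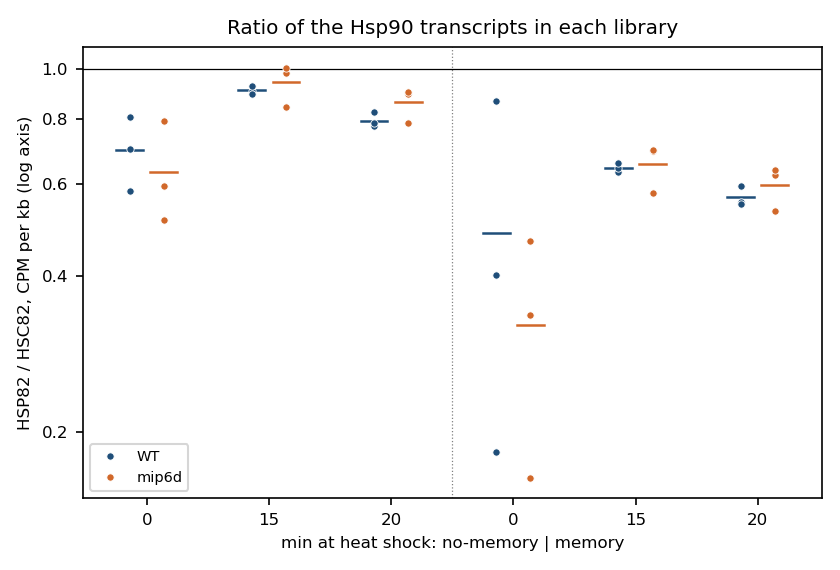
Ratio of HSP82 to HSC82 (CPM per kb, log axis) in each library by time in no-memory and memory cells; points are libraries, bars group means, blue WT and orange mip6d, and the line marks equal levels. The 15 and 20 min libraries lie between 0.776 and 1.01 in no-memory cells and between 0.534 and 0.699 in memory cells.

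Summed over both genes, Hsp90 transcript went from 3690.2 ± 891 CPM per kb (mean ± SD, n = 3) to 12081 ± 1224 and 9675 ± 617 in WT no-memory cells, and from 1448 ± 1251 to 6008 ± 599 and 4004 ± 505 in WT memory cells. The WT memory libraries at 0 min were at 2859.9, 1003 and 480.2 CPM per kb, with replicate 1 far above the others. As a percentage of the Hsp90 sum, CPR6 was at 20.9%, 21.1% and 19.5% in unheated WT cells, 43.9%, 40.5% and 40.2% at 15 min and 50.9%, 51.5% and 48.7% at 15 min in memory cells. STI1 was at 26%, 23% and 21.1% at 0 min and 30%, 27.5% and 28.2% at 15 min in no-memory cells and 25.8%, 26.8% and 26.1% in memory cells at 15 min. SBA1 was at 10.7%, 13.3% and 15.5% before heat, 8.72%, 7.2% and 7.7% after 15 min, and 17.6%, 14.1% and 13.4% in memory cells at 15 min. CNS1 was at 1.19%, 1.25% and 1.19% at 0 min and 0.329%, 0.275% and 0.303% at 15 min. These percentages are descriptions with no test.

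Across the 12 group means of log2 CPM, the Hsp90 genes followed each other (Pearson r = 0.997), and HSC82 followed STI1 (0.998). CPR6 and HCH1 formed the closest pair of members (0.998), while CNS1 had negative values with all other members (-0.83 with HSP82 to -0.50 with SBA1). Among 5266 other genes of at least 10 CPM on average, those most like HSC82 were HSP60 (r = 0.996), HSP104 (r = 0.996), SSA4 (r = 0.996), SSA1 (r = 0.995) and SSE2 (r = 0.994). Those most like HSP82 were SSA1 (r = 0.998), HSP104 (r = 0.998), HSP60 (r = 0.992), HSP78 (r = 0.991) and UBC4 (r = 0.990). HSP60, HSP104, HSP78, SSA1, SSA4 and SSE2 encode heat shock chaperones of the mitochondria or cytosol, and UBC4 a ubiquitin-conjugating enzyme. The points share libraries and the heat steps, so these values describe likeness and carry no test.

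A further list of 9 Hsp90 partners (CPR7, PPT1, TAH1, SGT1, RVB1, RVB2, TEL2, TTI1 and TTI2) was set beside the members. At 15 min in WT no-memory cells 1 of 9 was higher (SGT1, log2 0.17 ± 0.06) and 7 of 9 were lower, against 36% of genes lower, with PPT1, the Hsp90 phosphatase, lowest (-1.80 ± 0.28). SGT1 was the 1 of 9 higher in all 8 heat comparisons, against 29.1% to 37% of genes. From 4 to 7 were lower, against 29.8% to 37.4% of genes. The 4 of 9 were in WT memory cells at 20 min, where 29.8% of genes were lower. In memory against no-memory cells at 20 min 7 of 9 were higher in each strain, against 21.8% of genes in WT and 22.9% in mip6d, and 0 were lower, with PPT1 at 0.84 ± 0.27 in WT. Of the 5 heat shock markers (HSP104, HSP26, HSP12, HSP42 and HSP78), 5 rose at 15 min in WT no-memory cells, against 35.9% of genes, from the small heat shock protein HSP26 (log2 8.19 ± 0.32) to HSP42 (1.74 ± 0.69), and 4 of 5 were lower in memory than in no-memory cells at 15 and 20 min in both strains, against 19.7% and 22.5% of genes in WT and 17.8% and 22.3% in mip6d. At 0 min HSP42 was at 787, 109 and 35.5 CPM in WT memory cells, so replicate 1 stood apart for this marker as it did for the Hsp90 genes. The part of that library in the results was not tested beyond leaving it out.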

How the data were processed

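RNA was taken with hot acid phenol from 36 aliquots and sequenced from a stranded poly(A) library (TruSeq Stranded mRNA). The authors checked reads with FastQC, trimmed them with Trimmomatic, mapped them to sacCer3 with HISAT2 and quantified genes with StringTie (versions not given in the sources used here), and deposited read counts of 6403 genes. The authors also deposited a signal table of 6172 genes, normalised with NOISeq's low-count filter, TMM and ARSyN, which removes hidden batch effects. It served only as an alternative.

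Counts were fitted with edgeR 4.0.16 (R 4.3.3; quasi-likelihood, robust, TMM, filterByExpr) in 1 model of 12 groups with 24 residual degrees of freedom, with Benjamini-Hochberg adjustment over the 6038 genes tested and calls under 0.05. CPM values were scaled by TMM. Alternatives used DESeq2 1.42.0 and limma 3.58.1 (log2, pseudocounts of 1 and 10). The ratio was tested by exact permutation within strata, with no block by culture. Elements were searched with Python 3.11.15 in the 500 bases before each start codon. Scripts were tested on simulated data. Library totals of 28270651 to 42233578 set the counting error, and replicates of a group differed by more than that over all genes.

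Named were all 10 members, the highest and lowest of the further and marker lists in WT no-memory cells at 15 min, the 5 genes most like each Hsp90 gene, and MIP6. HSP104 falls outside this rule and was named after its values were seen. The members and lists were chosen with earlier results of these data known.

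The design text says that a culture was split into both flasks, so a fit with the culture as a block was run beside the reported fit, which has no block. In it the replicate number within a strain stands for the culture, which is not stated. Deviations of same-numbered libraries all correlated above 0.1 in 2 of 8 heat, 4 of 4 late, 5 of 6 memory and 3 of 6 strain comparisons. Values from the replicate block by culture are given where they change a call.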

Additional observations from a re-analysis of the deposited data

Results flagged for a closer look

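PIH1 (R2TP assembly) responded less to heat in memory than in no-memory cells by the test of the difference between the responses. The difference was -0.51 on the log2 scale at 15 min in WT and -0.51 at 20 min in mip6d (edgeR quasi-likelihood test, adjusted p = 0.0222 and 0.0179, n = 3 a group). In each comparison 1 of 10 members was called, close to the share of all genes (10.8% and 13.5%). Both calls of PIH1 were lost on leaving out any 1 replicate number.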

How the results depend on the processing

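Of the values of single members, 4772 stayed on their side of the threshold over the alternatives, 158 crossed into it and 108 out of it. Another 2, called in the reported fit, changed sign: CDC37 in memory against no-memory cells at 15 min, at 0.061 in WT and 0.029 in mip6d with library size only. Sign changes of values that were not called are not among these 2. CNS1 at 20 against 0 min in WT memory cells, for example, went from -0.11 to 0.008 with library size only. In memory against no-memory cells at 15 min that scaling moved the median gene by 0.25 in WT and 0.22 in mip6d. It left 1 WT and 2 mip6d members called there, against 52.9% and 48.3% of genes. With only the groups compared, 1 member was called in WT memory against no-memory cells at 0 min. The share of all genes called by that fit was not set beside this count. For the difference of the responses at 15 min, mip6d gave 0 calls as reported, but 2 with DESeq2 size factors or without a filter, 3 with library size only or only the groups compared, 5 with the DESeq2 test and 6 with limma, while WT gave 3 with limma. At 20 min mip6d gave 0 with only the groups compared. The replicate block by culture gave 5 calls in mip6d at 15 min and 1 in WT at 20 min, and the block by number 5 and 0. The shares of all genes called by these fits were not set beside these counts of response differences. A change in calls over all genes was thus not told apart from a change in the members. In memory against no-memory cells in WT at 15 min the block by number also called AHA1. Apart from the changes given in the report, the block by culture changed no other member's call. The ratio at 0 min, memory against no-memory, was -0.94 with the authors' normalised values (exact permutation adjusted p = 0.032).

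Leaving out libraries (replicate 1 of WT memory 0 min was chosen after seeing the data) gave 1 to 8 members called at 0 min, 0 to 9 at 15 min and 3 to 8 at 20 min in WT, memory against no-memory, and 4 to 8, 1 to 9 and 6 to 7 in mip6d. Calls over all genes changed too, without 1 replicate number or without replicate 1 of WT memory 0 min. They were 1.6% to 21.1% of genes at 0 min, 24.6% to 41.5% at 15 min and 25.4% to 44.7% at 20 min in WT. In mip6d they were 3.46% to 19%, 22.7% to 39.7% and 29.6% to 45.6%. The difference of the responses gave 0 to 6 (15 min) and 0 to 1 (20 min) in WT and 0 to 4 and 0 to 2 in mip6d, with no share of all genes set beside these counts. The mean log2 ratio ranged from 0.44 to 0.99 at 15 min and 0.28 to 0.83 at 20 min against 0 min, and in memory against no-memory cells from -1.24 to -0.58 at 0 min, -0.52 to -0.50 at 15 min and -0.52 to -0.49 at 20 min. The cause of these changes was not tested. With 2 replicates in a group the spread rests on fewer libraries. Members had at least 504 counts in every library, and depth was not compared with replicate spread for each of them.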
